A study of Mus musculus with 69 samples.

Results

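The heat shock and cold-inducible genes followed here are 10 transcripts that respond to temperature: Hspa1a, Hspa1b, Hspa8, Hsph1, Dnajb1, Hsp90aa1, Hspb1 and Hsf1 from the heat shock response, and Cirbp and Rbm3, which encode cold-inducible RNA-binding proteins. They were taken by symbol from the kidney count tables and make up 10 of the 24523 gene symbols measured. RNA was sequenced from perfused whole kidneys of NZB/W mice, a strain that develops lupus nephritis with age. The 65 original libraries came from 30 young mice aged 12 weeks, 27 nephritic mice aged 30 to 45 weeks, and 8 mice in remission. Young and nephritic kidneys were taken at Zeitgeber times (ZT) 0, 4, 8, 12, 16 and 20 h, with lights on at ZT0 and off at ZT12. The remission mice were nephritic mice, given as 36 to 50 weeks old at treatment with CTLA4Ig, anti-CD40L and cyclophosphamide, and their kidneys were taken some weeks later at ZT0 or ZT12.

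Young mice numbered 7, 4, 4, 7, 4 and 4 at the successive times and nephritic mice 7, 4, 4, 6, 3 and 3, while 4 remission mice were taken at each of ZT0 and ZT12. Nephritic mice were therefore also older than young mice, so disease and age cannot be told apart. The libraries were sequenced in sets, and the first set held 6 young and 5 nephritic mice, all at ZT0 or ZT12. The remission libraries were a run of their own, which cannot be told apart from remission except through 4 repeat libraries of other mice. Total counts ran from 25257530 to 35744843 in young mice, from 26596500 to 48075977 in nephritic mice and from 13311278 to 21849912 in remission mice. Markers of the kidney tubule were present in every library: Umod, the gene of uromodulin, was at 1019 CPM (counts scaled to the library total after TMM adjustment) or more, and Slc12a1, a salt transporter of the thick ascending limb, at 133 CPM or more.

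Cells exposed to heat or misfolded protein release HSF1, the transcription factor encoded by Hsf1, which binds heat shock elements and induces chaperones. Hspa1a and Hspa1b encode the inducible HSP70 proteins, Hspa8 the constitutive HSC70, Hsph1 the exchange factor HSP110, Dnajb1 an HSP40 co-chaperone, Hsp90aa1 an HSP90 and Hspb1 the small chaperone HSP27. Cirbp and Rbm3 transcripts rise in mild cold, and in peripheral organs of nocturnal rodents these genes and the heat shock genes are known to follow the daily body temperature cycle, which is warmer in the dark phase. Body temperature was not analysed here.

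The stretches upstream of the start sites are shown because both regulatory systems act there. RefSeq promoter windows (GRCm38.p6) matched 6 of the 10 genes with 9 windows. Each was searched over 250 upstream bases for the heat shock element half-site pairs GAANNTTC and TTCNNGAA, which read the same on both strands and can overlap in longer arrays, and on both strands for TCCCCGCC, an element named for the response to mild cold. Capitals below mark the matches, and positions count upstream from the start site, the adjacent base being -1.
Hspa1a: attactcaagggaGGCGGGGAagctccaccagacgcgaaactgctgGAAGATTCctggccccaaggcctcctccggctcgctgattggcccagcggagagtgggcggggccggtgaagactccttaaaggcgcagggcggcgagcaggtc
Hspa1b: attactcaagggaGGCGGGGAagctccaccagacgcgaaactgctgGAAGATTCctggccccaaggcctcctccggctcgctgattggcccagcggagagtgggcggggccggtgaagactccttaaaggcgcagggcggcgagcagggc
Hspb1: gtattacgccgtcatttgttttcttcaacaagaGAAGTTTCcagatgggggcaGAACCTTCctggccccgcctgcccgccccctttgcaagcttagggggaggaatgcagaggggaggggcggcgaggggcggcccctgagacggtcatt
Hsph1: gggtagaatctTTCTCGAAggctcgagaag
Cirbp: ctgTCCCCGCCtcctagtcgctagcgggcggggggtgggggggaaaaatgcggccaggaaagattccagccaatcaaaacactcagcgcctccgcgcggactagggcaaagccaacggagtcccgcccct

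The Hspa1a stretch is chr17:34972157-34972306 and the Hspa1b stretch chr17:34959239-34959388, both on the minus strand. Each holds a heat shock pair at -104 and the reverse complement of the cold element at -137, and over 250 upstream bases the pair of promoters was identical at 247 positions, or 98.8%. The Hspb1 stretch (chr5:135887769-135887918, plus strand) holds heat shock pairs at -117 and -97. The Hsph1 stretch (chr5:149636351-149636380, minus strand) holds one at -33 or -54, depending on which of its annotated starts is used, where an exon of other Hsph1 transcripts also reaches. The Cirbp stretch (chr10:80167589-80167718, plus strand) holds the cold element at -247 and no heat shock pair, and the window of the second Cirbp start held neither. An annotated Cirbp exon also reaches into the 250-base window of the shown stretch, and the annotated gene begins further upstream. Neither Dnajb1 window held a match. Of 32851 promoter windows of the same length, 12.8% held a heat shock pair, 6.69% as GAANNTTC and 7.17% as TTCNNGAA, and 4.64% held the cold element. A match is a run of letters and not a shown binding site.

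The genes lie on 8 chromosomes, by GENCODE M21 on GRCm38. Hspa8 spans chr9:40800984-40810087, Hsp90aa1 chr12:110690605-110702728, Hsf1 chr15:76477422-76501913 and Dnajb1 chr8:83608193-83612653. Cirbp spans chr10:80165985-80172786, Rbm3 chrX:8138975-8145880, Hsph1 chr5:149614287-149636376 and Hspb1 chr5:135887919-135889563. Hspa1a (chr17:34969190-34972156) and Hspa1b (chr17:34956436-34959238) are near-identical neighbours.

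Several of these transcripts share sequence with copies elsewhere, and the counts were of uniquely aligned reads, so part of each such gene could not be counted. Windows of 150 bases, the read length, were shared exactly with another gene over 39.7% of the Hspa1a transcript and 40.5% of the Hspa1b transcript, chiefly with each other. The shared portion was 55.4% for Hspa8 (chiefly Gm15459), 41.9% for Hsp90aa1 (Gm12346), 53.5% for Hspb1 (Hsp25-ps1) and 2.42% for Rbm3 (Rbm3-ps). Hsph1, Dnajb1, Hsf1 and Cirbp shared none. The strand of the counting was not stated, so reads of Rbm3 and its antisense partner Rbm3os, and of Hspa1a and the overlapping Gm20481, cannot be told apart.

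Per kilobase of transcript, the level in young kidneys was highest for Hspa8, at 479 CPM per kb, followed by Hsp90aa1 at 118, Cirbp at 57.6 and Hsph1 at 50.1 CPM per kb. The other members lay lower, with Hspb1 at 35.6, Hspa1b at 23.7, Rbm3 at 23.2, Hsf1 at 20.6, Dnajb1 at 17.1 and Hspa1a at 13.3 CPM per kb. The constitutive chaperone was thus listed far above the inducible ones. Reads lost to shared sequence lower the values of Hspa8, Hsp90aa1, Hspb1, Hspa1a and Hspa1b. All other levels below are CPM without a length correction and compare samples, not genes.

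**Figure D1:**
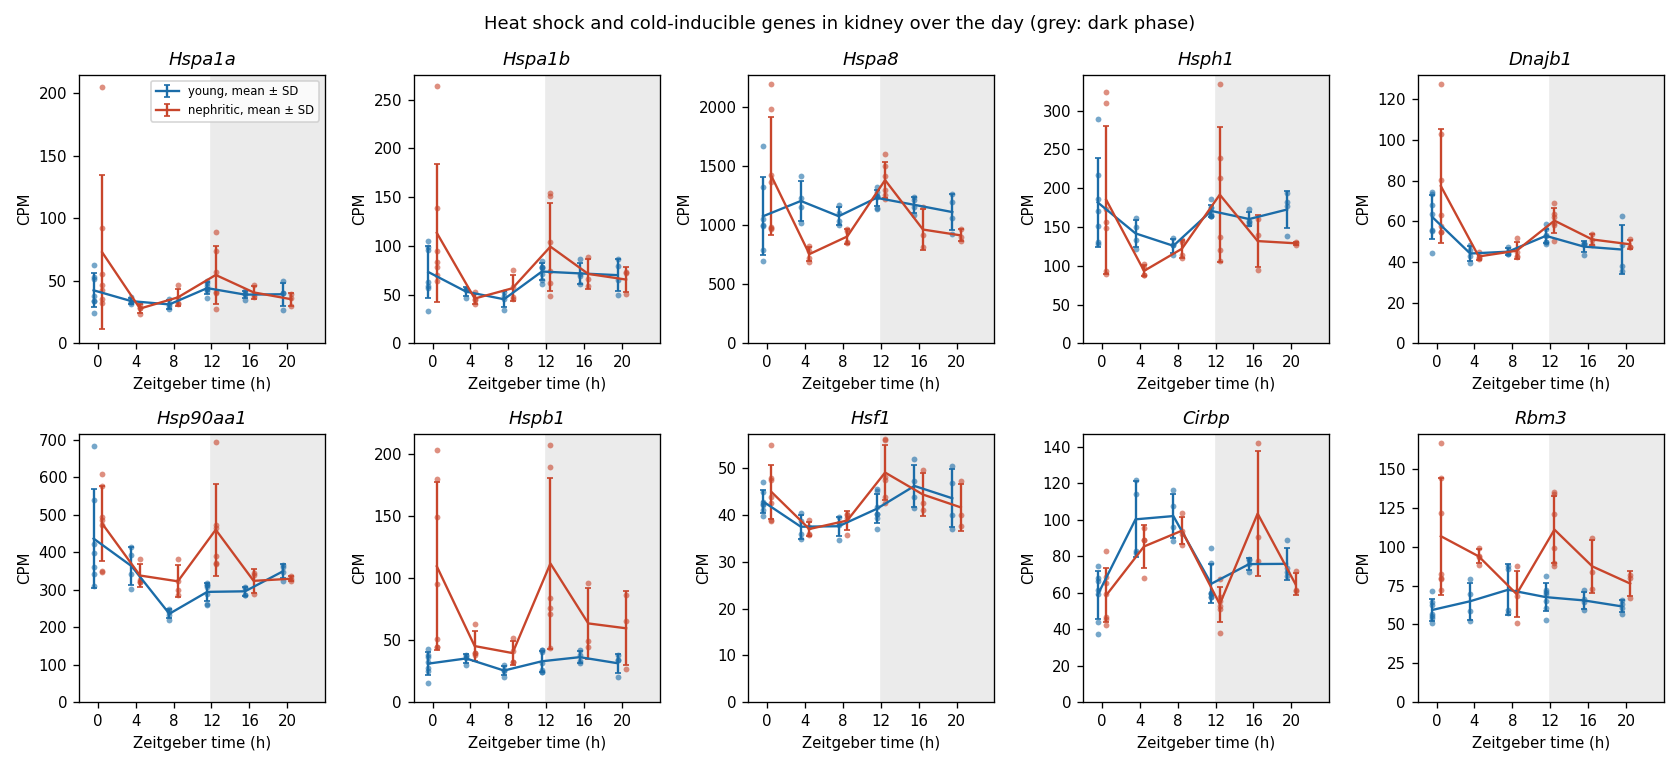
Level of each of the 10 genes by Zeitgeber time in young and nephritic kidneys. Each point is a mouse, the lines join group means, the vertical axes are CPM and the horizontal axes are Zeitgeber time in h. Young Cirbp peaks at ZT4 and ZT8 while Hsp90aa1 dips at ZT8, and in nephritic kidneys most heat shock genes are highest at ZT0 and ZT12.

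The first question was whether the temperature genes keep a daily rhythm in young kidneys. They did in part: Cirbp was high in the light phase and low at ZT0 and ZT12, and Hsp90aa1, Hspa1b, Hsf1 and Dnajb1 also differed between times. Young Cirbp averaged 102 ± 12.2 CPM (SD, n = 4) at ZT8 and 58.8 ± 13.3 CPM (SD, n = 7) at ZT0. Young Hsp90aa1 was lowest at ZT8, at 236 ± 12.4 CPM (SD, n = 4), and highest at ZT0, at 436 ± 131 CPM (SD, n = 7). At ZT0 the mice of the first sequencing set read highest. Rbm3, the other cold-inducible gene, did not pass.

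Cirbp in single young mice read 88.5, 96.0, 107 and 116 CPM at ZT8 and 81.8, 83.0, 114 and 122 CPM at ZT4. At ZT16 the values were 71.1, 75.5, 77.7 and 78.3 CPM, and at ZT20 69.3, 71.5, 73.5 and 88.9 CPM. At ZT0 it ran from 37.5 through a median of 61.4 to 74.5 CPM, and at ZT12 from 57.5 through 59.7 to 84.5 CPM. Every young mouse at ZT4 and ZT8 thus lay above every mouse at ZT0 and ZT16, and the ranges at ZT12 and ZT20 reached into the lower values of the light phase.

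Hsp90aa1, the inducible HSP90, read 220, 234, 240 and 249.5 CPM in the young mice at ZT8 and 303, 342, 393 and 414 CPM at ZT4. The dark-phase values were 286, 286, 304 and 307 CPM at ZT16 and 324, 346, 359 and 366 CPM at ZT20. At ZT0 it ran from 310 through 398 to 682 CPM and at ZT12 from 259 through 308 to 318 CPM. The ZT8 mice lay below all other young mice, and ZT0 held the 3 highest. Those 3, CR6RU, CR6LL and CR6RL at 422, 538 and 682 CPM, belonged to the first sequencing set, which held only ZT0 and ZT12. The ZT0 mice of the second set read 310, 342, 361 and 398 CPM, inside the range at ZT4.

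In edgeR's quasi-likelihood test over the 6 times, with Benjamini-Hochberg adjustment over all genes tested, 5 of the 10 members passed in young mice, beside 39.8% of the 16521 genes tested. The adjusted p was 5.37e-05 for Hsp90aa1, 0.00211 for Cirbp, 0.00816 for Dnajb1, 0.018 for Hsf1 and 0.0468 for Hspa1b. It was 0.111 for Hsph1, 0.125 for Hspa1a, 0.352 for Rbm3, 0.403 for Hspb1 and 0.563 for Hspa8. The share of members was near that of all genes. The Hspa1b call was lost without any of 22 of the 30 mice, its adjusted p then reaching 0.125, and a cosine-shaped test called 3 members, Hsp90aa1, Hsf1 and Cirbp. All p-values here and below measure the spread between these mice.

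A cosine fitted to log2 CPM gave the hour of the peak for each gene. Cirbp peaked at 7.02 ± 1.01 h (SE) with an amplitude of 0.24 (log2), and Rbm3 at 10.02 ± 1.94 h with 0.11. The heat shock genes lay later, with Hspa1a at 17.2 ± 1.86 h, Hspa1b at 17.8 ± 1.11 h, Hsf1 at 18.4 ± 0.728 h, Hsph1 at 18.98 ± 1.16 h and Hsp90aa1 at 23.0 ± 0.681 h. Cirbp and the group of Hspa1b, Hsf1 and Hsph1 were thus placed close to opposite ends of the 24 h cycle. The largest amplitudes among heat shock genes were 0.31 (log2) for Hsp90aa1 and 0.30 for Hspa1b. The peaks of Hspa8 (12.0 ± 3.09 h), Hspb1 (17.5 ± 3.75 h) and Dnajb1 (22.6 ± 3.44 h) were loosely placed, with errors above 3 h.

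The most direct contrast of warm and cool phase sets ZT16 and ZT20 against ZT4 and ZT8. In young kidneys Hspa1b, Hsph1 and Hsf1 were higher in the dark phase and Cirbp was lower. Hspa1b, an inducible HSP70, was 1.44-fold higher, and Cirbp fell to 0.748 of its light-phase level. The remaining 6 members, Rbm3 among them, did not pass.

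Cirbp in young mice ran from 81.8 through a median of 102 to 122 CPM in the 8 light-phase mice and from 69.3 through 74.5 to 88.9 CPM in the 8 dark-phase mice. Hspa1b ran from 33.9 through 50.7 to 55.6 CPM in the light and from 49.2 through 70.0 to 86.6 CPM in the dark. Hsph1, the HSP110 exchange factor, ran from 114 through 130 to 161 CPM in the light and from 138 through 165 to 194 CPM in the dark. Hsf1 ran from 34.7 through 38.1 to 40.4 CPM in the light and from 37.0 through 45.3 to 52.0 CPM in the dark. In each of these genes most mice of one phase lay beyond those of the other, but the ranges overlapped.

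The young dark-minus-light difference on the log2 scale was -0.42 ± 0.10 (SE) for Cirbp, with an edgeR adjusted p of 0.00365. It was 0.25 ± 0.06 for Hsf1 (adjusted p = 0.0019), 0.53 ± 0.16 for Hspa1b (0.0152) and 0.31 ± 0.11 for Hsph1 (0.0343). These are 4 of the 10 members, 3 higher and 1 lower, beside 31.3% of all genes tested, 16.2% higher and 15.1% lower. For the members that did not pass, the difference was 0.27 for Hspa1a (adjusted p = 0.132), 0.13 for Hsp90aa1 (0.264), -0.11 for Rbm3 (0.404), 0.17 for Hspb1 (0.459), 0.07 for Dnajb1 (0.631) and 0.00 for Hspa8 (0.995). The means of 8 of the 10 were higher in the dark, all but Cirbp and Rbm3. Hspa8 was counted among the 8 at 1141 against 1140 CPM. The share of all genes with a higher dark mean was not counted.

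Markers of other tissues and processes also differed in this contrast. The summed level of the adrenal markers Cyp11b1, Cyp11b2, Star and Th, of which 4 of 4 were higher in the dark, ran from 4.02 to 7.35 CPM in light-phase young mice and from 5.81 to 769 CPM in the dark-phase mice. Single libraries made up this difference: ZT160, ZT16RU and ZT20LU held 769, 760 and 284 CPM and ZT16LL 30.3 CPM. The other dark-phase mice held 5.81 to 7.16 CPM. Some young libraries at ZT0 and ZT12 were also high, up to 1023 CPM. The summed acute-response genes such as Fos and Atf3, of which 5 of 8 were higher in the dark, ran from 192 to 622 CPM in the light and from 432 to 1363 CPM in the dark, and the injury markers Lcn2 and Havcr1 from 25.5 to 53.9 and from 42.8 to 71.2 CPM. Without the 7 young libraries whose adrenal sum exceeded 100 CPM, Hsf1 and Cirbp still passed, beside 18% of all genes. Hspa1b then stood at 0.53 (adjusted p = 0.0653) and Hsph1 at 0.34 (0.0661). The Hsph1 call was also lost without any of 7 single mice (ZT16RU, ZT200, ZT20RL, ZT4LU, ZT4RL, ZT8RL and ZT8RU), with an adjusted p of at most 0.0687. The part of the acute-response and injury genes was not tested.

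**Figure D2:**
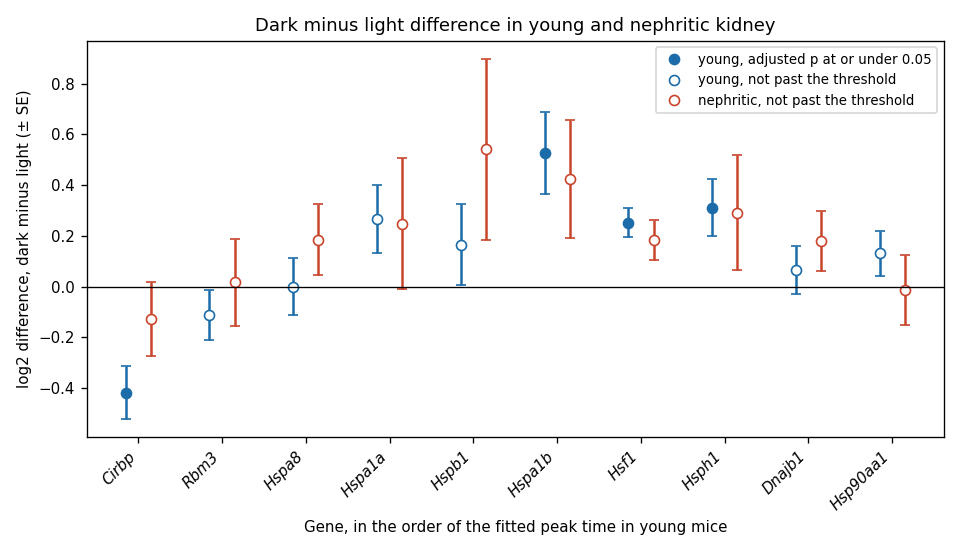
Dark minus light difference of each gene in young and nephritic kidneys. The vertical axis is the log2 difference of ZT16 and ZT20 against ZT4 and ZT8, points are edgeR estimates and bars ± their SE. In young mice Cirbp lies below 0, at -0.42, and Hspa1b, Hsph1 and Hsf1 above 0.

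In nephritic kidneys 8 of the 10 genes differed between times. The heat shock genes Hspa1a, Hspa1b, Hspa8, Hsph1, Dnajb1, Hsp90aa1 and Hsf1 differed between times with their highest means at ZT0 and ZT12, and Cirbp differed with its lowest means at those times. All but Hsp90aa1 of these heat shock genes were lowest at ZT4. Nephritic Hspa8 averaged 1414 ± 501 CPM (SD, n = 7) at ZT0 and 1381 ± 151 CPM (SD, n = 6) at ZT12, against 755 ± 60.8 CPM (SD, n = 4) at ZT4. Cirbp averaged 58.6 ± 14.8 CPM (SD, n = 7) at ZT0 and 103 ± 34.0 CPM (SD, n = 3) at ZT16. Hspb1 and Rbm3 did not pass.

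Hspa8 in single nephritic mice read 691, 719, 785 and 825 CPM at ZT4 and 851, 854, 946 and 965 CPM at ZT8. It read 818, 917 and 1154 CPM at ZT16 and 869, 902 and 970 CPM at ZT20. At ZT12 it ran from 1217 through 1357 to 1601 CPM and at ZT0 from 969 through 1366 to 2195 CPM. Each of the 6 mice at ZT12 lay above the 14 mice at ZT4, ZT8, ZT16 and ZT20, while at ZT0 the mice were spread from within that range to far above it.

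Cirbp in nephritic mice read 68.2, 88.6, 89.0 and 95.5 CPM at ZT4, 86.1, 92.3, 93.8 and 104 CPM at ZT8, and 77.6, 90.5 and 142 CPM at ZT16. It read 60.7, 61.5 and 71.7 CPM at ZT20, ran from 38.0 through 54.0 to 67.6 CPM at ZT12, and from 42.4 through 59.1 to 82.8 CPM at ZT0. The highest nephritic value stood at ZT16, in the dark phase, and came from 1 of 3 mice.

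Across the 13 nephritic mice at ZT0 or ZT12, Hsph1 ran from 89.8 to 334 CPM and Hspa1b from 49.0 to 264 CPM, against 87.6 to 161 CPM and 40.7 to 88.9 CPM in the 14 mice at the other times. Hsp90aa1 ran from 347 to 693 CPM against 285 to 383 CPM. The mean at ZT0 and ZT12 together was above that at the other times for 9 of the 10 members in nephritic mice, with Cirbp the exception, and for 7 of the 10 in young mice. This grouping of times was made after the values were seen and was not tested, and the share of all genes was not counted. Of all genes past the test over the day in nephritic mice, 11.5% had their highest fitted mean at ZT0 and 26.9% at ZT12. Mice of the first sequencing set were taken at ZT0 and ZT12 only, and these means are not adjusted for the set. The summed injury markers of nephritic mice averaged 524 ± 553 CPM (SD, n = 13) at ZT0 and ZT12. At the other times they averaged 211 ± 165 CPM (SD, n = 14), and their part was not tested.

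By the same edgeR test over the 6 times, 8 of the 10 members passed in nephritic mice, beside 21.6% of the 16872 genes tested. The adjusted p was 0.000904 for Dnajb1, 0.00156 for Hspa8, 0.00302 for Cirbp, 0.00361 for Hspa1b, 0.00499 for Hspa1a, 0.0134 for Hsph1, 0.0219 for Hsf1 and 0.0222 for Hsp90aa1. It was 0.221 for Hspb1 and 0.216 for Rbm3. A cosine-shaped test called 0 of the members, beside 2.15% of all genes, and leaving the sequencing set out of the model called 5. The Hsf1 call was lost without mouse RX8RU (adjusted p = 0.0507). Leukocyte markers also differed between times in these mice, with 4 of 6 past the test, and their part in the result was not tested. Mouse RX10RU, labelled ZT8, held 18.4 CPM of the clock gene Arntl, against 2.08 to 3.76 CPM in the other nephritic ZT8 mice. Its level of the clock gene Per2 was 10.1 CPM, against 35.4 to 40.3 CPM in them. The label was kept in all fits.

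The dark-minus-light contrast called 0 of the members in nephritic mice by edgeR, beside 2% of all genes (1.44% higher and 0.563% lower). At an unadjusted p under 0.05 it called 1, Hsf1, at 0.18 on the log2 scale, and DESeq2 called 0. The difference was -0.13 ± 0.14 (SE) for Cirbp, 0.42 ± 0.23 for Hspa1b and 0.29 ± 0.23 for Hsph1. The means of 8 of the 10 were higher in the dark, but not of the same genes as in young mice. The exceptions were Cirbp and Hsp90aa1 here, and Cirbp and Rbm3 in young mice. Nephritic Rbm3 averaged 81.8 CPM in the dark and 81.6 CPM in the light. The share of all genes was not counted here either.

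Whether the contrast itself differed between nephritic and young mice was tested in a joint fit, and 0 of the 10 passed by edgeR or DESeq2, with 0 at an unadjusted p under 0.05, beside 0.0285% of all genes (0.0114% higher and 0.0171% lower). For Cirbp the contrast was 0.30 ± 0.19 (SE) higher in nephritic mice, with a 95% interval from -0.08 to 0.68. The interval is wide enough to hold no change as well as the loss of the whole young difference.

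A test of the full time course found a different rhythm in nephritic mice for Hspa8 (edgeR adjusted p = 0.0225) and Hsp90aa1 (0.0433), or 2 of the 10 members, beside 6.27% of the 17521 genes tested. Young Hspa8 was nearly level, with means from 1075 CPM at ZT0 and ZT8 to 1231 CPM at ZT12, whereas nephritic means ran from 755 to 1414 CPM. For Hsp90aa1 the young low at ZT8 (236 CPM) was not seen in nephritic mice, which averaged 322 CPM there, while ZT12 averaged 460 CPM against 294 CPM in young mice. The Hspa8 call was lost without mouse RX11RL or RX12LU, with an adjusted p of at most 0.0556, and the Hsp90aa1 call without any of 43 of the 57 mice, with at most 0.0867. Rbm3 stood at 0.0729 and Cirbp at 0.245, and DESeq2 called Rbm3 as well.

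Opposite movement of heat shock and cold-inducible genes was next examined among mice of the same time label, diagnosis and sequencing set. Differences between the labelled times then do not enter, but differences in phase among mice of the same label can. The values compared were log2 CPM minus the mean of each such group, over 30 young and 27 nephritic mice, in 32 pairs with a permutation test within groups. Cirbp was low in the mice where Hsp90aa1 was high, in both diagnoses. In young mice Cirbp was also opposite to Hsph1, Hspa8 and Dnajb1, and in nephritic mice to Hspa8. Rbm3 was opposite to Hsph1 in nephritic mice. Whether any pair differed between the diagnoses was not tested. Mouse RX10RU, whose clock gene levels stood apart at ZT8, had the highest Hsp90aa1 (382 CPM) and lowest Cirbp (86.1 CPM) of the nephritic ZT8 mice. Its part in the correlations was not tested.

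For Cirbp with Hsp90aa1 in nephritic mice Pearson's r was -0.82 (permutation p = 3e-05, adjusted p = 0.00096), Spearman's rho was -0.83 (p = 0.00011, adjusted p = 0.00352), and r was -0.74 without the 2 mice farthest from the median. In young mice r was -0.80 (permutation p = 0.0012, adjusted p = 0.0192), rho was -0.69 (p = 0.00329, adjusted p = 0.0315), and r was -0.70 without the 2 farthest mice, CR6RU and CR6RL. The pair Hsp90aa1 and Cirbp thus held in both diagnoses and by both measures.

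In young mice Cirbp with Hsph1 gave r = -0.69 (permutation p = 0.00417, adjusted p = 0.0222), rho = -0.64 (p = 0.00394, adjusted p = 0.0315), and -0.49 without the same 2 mice. Cirbp with Hspa8 gave r = -0.69 (p = 0.00608, adjusted p = 0.0278) and rho = -0.56 (p = 0.0135, adjusted p = 0.0619), and -0.48 without them, also by permutation. Cirbp with Dnajb1 gave r = -0.61 (permutation p = 0.00392, adjusted p = 0.0222), rho = -0.64 (p = 0.00218, adjusted p = 0.0315), and -0.58 without mice ZT200 and CR6RL. In nephritic mice Cirbp with Hspa8 gave r = -0.63 (permutation p = 0.00256, adjusted p = 0.0218), rho = -0.53 (p = 0.0243, adjusted p = 0.0974), and -0.52 without mice RX10LU and RX12LL. The chaperones whose level is opposite to Cirbp here are HSP90, HSP110, HSC70 and an HSP40.

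Rbm3 with Hsph1 in nephritic mice gave r = -0.73 (permutation p = 0.00272, adjusted p = 0.0218), rho = -0.65 (p = 0.011, adjusted p = 0.0585), and -0.67 without mice RX10LU and RX11LL. The 5 nephritic mice with the most Rbm3 were also the 5 with the highest summed injury markers. They held 89.8 to 149 CPM of Hsph1, against 137 to 334 CPM in the other nephritic mice at ZT0 or ZT12. The part of the injury markers in this pair was not tested. In all, 7 of the 32 pairs passed by Pearson's r, and all 7 were negative. The same test was not run for other genes, so no share over all genes stands beside this count. The largest positive pair was Rbm3 with Hspb1 in nephritic mice, with r = 0.68 (permutation p = 0.0174, adjusted p = 0.0697), rho = 0.66 (p = 0.00972, adjusted p = 0.0585), and 0.58 without mice CRS6LL and CRS60, and it did not pass. Cirbp was negative with 8 of the 8 heat shock genes in each diagnosis, but with Hspa1b, the member with the largest dark-minus-light difference in young mice, r was only -0.02 in young mice. Rbm3 passed with 0 of 8 in young mice, where r with Hspa1b was 0.32 (permutation p = 0.0951, adjusted p = 0.217, rho = 0.31, rho p = 0.121, adjusted 0.281, and 0.41 without mice ZT0RL and ZT00). Within the second sequencing set alone 1 pair passed, nephritic Cirbp with Hsp90aa1 at r = -0.81 (permutation, adjusted p = 0.00352), and the young pair stood at -0.70 (adjusted p = 0.0868).

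**Figure D3:**
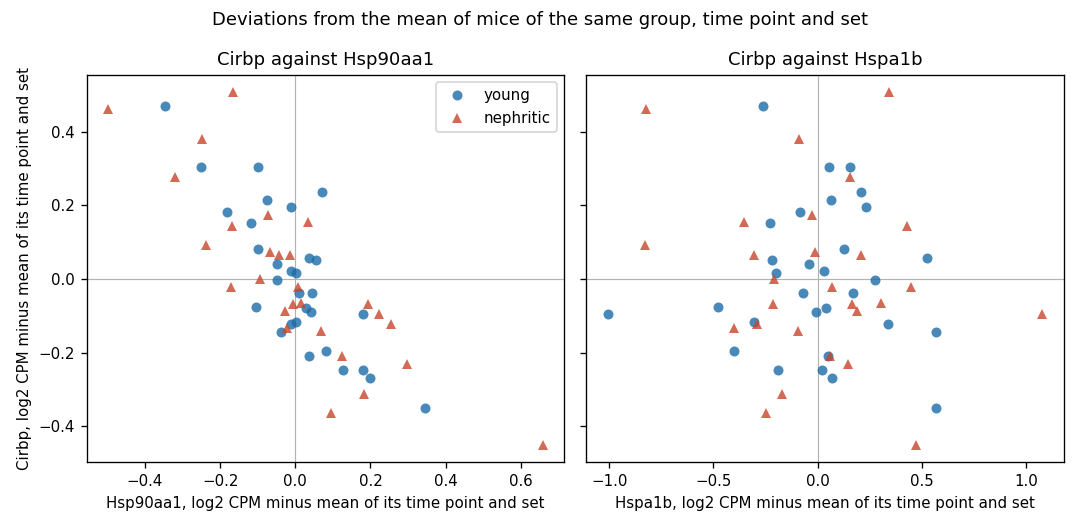
Cirbp against Hsp90aa1 (left) and Hspa1b (right) in young and nephritic kidneys, as log2 CPM minus the mean of each mouse's time point and set. Each point is a mouse. For Hsp90aa1 the points fall from upper left to lower right, with r = -0.80 in young and -0.82 in nephritic mice. For Hspa1b r was -0.02 in young and -0.18 in nephritic mice.

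The genes whose level over the 30 young mice was most like that of Hsph1, among 13850 genes at 1 CPM or more, were Stip1 (r = 0.91), Chordc1 (0.88), Banp (0.82), Zbtb40 (0.80) and Serpinh1 (0.80), as a description over mice that share time points and sequencing sets. Stip1, Chordc1 and Serpinh1 encode an HSP70 to HSP90 adaptor, an HSP90 co-chaperone and the collagen chaperone HSP47. Among the genes most opposite to Hsph1 were Lrrc29 (r = -0.84) and Cirbp (-0.76). Those most like Cirbp were Accs (r = 0.84), Lrrc29 (0.82), Phf7 (0.81), Nrde2 (0.81) and 4833420G17Rik (0.80), and those most opposite were Bicd2 (-0.91), Top1 (-0.88) and Chordc1 (-0.85).

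The level in nephritic against young kidneys was next compared as an average over the 6 times. The nephritic mice were also older, so this contrast cannot tell disease from age. Hspb1, the small chaperone HSP27, was 2.24-fold higher in nephritic kidneys, Rbm3 1.42-fold higher and Hsp90aa1 slightly higher on this average. The nephritic mean of Hsp90aa1 was below the young mean at ZT4 (338 against 363 CPM) and ZT20 (329 against 349 CPM). It was above the young mean at ZT0, ZT8, ZT12 and ZT16. HSP70, HSP110, HSP40, Hsf1 and Cirbp did not pass.

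Hspb1 ran from 15.5 through a median of 32.9 to 42.8 CPM in young mice and from 27.2 through 52.2 to 207 CPM in nephritic mice. Rbm3 ran from 50.9 to 87.3 CPM in young and from 51.0 to 167 CPM in nephritic mice. The ranges overlapped in both genes, and the nephritic upper end was far above any young mouse. The log2 difference was 1.16 ± 0.17 (SE, edgeR adjusted p = 3.99e-08) for Hspb1, 0.50 ± 0.08 (4.3e-07) for Rbm3 and 0.22 ± 0.07 (0.0098) for Hsp90aa1. These 3 of 10, all higher, stand beside 62.1% of all genes, 28.1% higher and 33.9% lower. The share over all genes is high, so passing this test did not set a gene apart.

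The 5 nephritic mice with the most Hspb1, HIL5RU, CRS60, HIL5LL, RX12RU and RX10LU, held 149 to 207 CPM, and the next mouse 96.1 CPM. All 5 were taken at ZT0 or ZT12, and CRS60, HIL5RU and HIL5LL belonged to the first sequencing set. The same 5 had the most Rbm3, from 121 to 167 CPM, and the highest summed injury markers, Lcn2 and Havcr1, from 778 to 1491 CPM against 27.1 to 582 CPM in the other nephritic mice and 25.5 to 126 CPM in young mice. For Hspa8, Hsph1 and Hspa1b the 5 highest mice shared 0 with the 5 highest for injury markers, and for Hsp90aa1 2. HSP27 and Rbm3 therefore peaked in mice other than those with the most HSP70 or HSP110 transcript. Both injury markers and 6 of 6 leukocyte markers were higher in nephritic mice, the leukocyte sum running from 25.9 to 586 CPM against 12.5 to 28.6 CPM. Of 6 tubule markers (Slc34a1, Lrp2, Umod, Slc12a1, Slc12a3 and Aqp2) 3 were lower and 1 higher in nephritic mice. The 5 mice with the most Hspb1 were the 5 with the lowest summed tubule markers, from 4535 to 6886 CPM against 9004 to 16359 CPM in the other nephritic mice and 11569 to 19996 CPM in young mice. The part of injury, leukocyte and tubule markers in these differences was not tested. In whole kidney, fewer cells of a type and less RNA per cell cannot be told apart.

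At ZT0 and ZT12, remission kidneys could be set against nephritic and young kidneys, in a fit of 35 libraries. Against nephritic kidneys Hsf1, Rbm3, Hspb1, Hsp90aa1 and Hspa1a were lower in remission. Against young kidneys Hspb1 was still higher and Hsf1 was lower. Cirbp passed in neither comparison.

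Hsf1 in the remission mice read 33.5, 34.7, 34.9 and 35.9 CPM at ZT0 and 30.6, 30.9, 33.1 and 36.1 CPM at ZT12. It ran from 38.8 to 56.3 CPM in the 13 nephritic mice and from 37.0 to 47.1 CPM in the 14 young mice at these times, so remission lay below every mouse of both groups. Rbm3 read 38.1, 48.7, 48.8 and 49.2 CPM at ZT0 and 47.5, 57.1, 70.4 and 86.3 CPM at ZT12 in remission, against 72.4 to 167 CPM in nephritic mice. Hspb1 read 29.4, 39.8, 53.4 and 53.6 CPM at ZT0 and 33.9, 44.9, 68.1 and 81.9 CPM at ZT12 in remission, against 43.8 to 207 CPM in nephritic mice. For Rbm3 only the highest remission mouse lay within the nephritic range, whereas for Hspb1 both times overlapped with it.

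The remission-minus-nephritic difference on the log2 scale was -0.49 ± 0.06 (SE, edgeR adjusted p = 5.01e-07) for Hsf1, -0.93 ± 0.14 (9.1e-06) for Rbm3, -0.99 ± 0.31 (0.0126) for Hspb1, -0.43 ± 0.13 (0.0114) for Hsp90aa1 and -0.63 ± 0.25 (0.0423) for Hspa1a. These 5 of 10, all lower, stand beside 37.8% of all genes, 17.1% higher and 20.8% lower. The injury markers ran from 91.6 to 187 CPM in remission, with Lcn2 of the pair past the test and lower, and their part was not tested. The nephritic side of this comparison held all 5 mice with the highest injury sums, from 778 to 1491 CPM. With the 4 repeat libraries and the run as a covariate, 3 passed: Hspb1 at -1.35, Rbm3 at -0.66 and Hsf1 at -0.35. In that fit each repeat entered beside the original library of the same mouse, without a term for the mouse. Hsp90aa1 (-0.20, adjusted p = 0.445) and Hspa1a (-0.18, adjusted p = 0.723) did not pass there. The repeat labelled RX11RU, entered at ZT12, was closer to the ZT4 mouse RX11LU (r = 0.994) than to its own original (0.964). RX11RU and RX11LU held 693 and 327 CPM of Hsp90aa1, and 88.8 and 31.9 CPM of Hspa1a. The part of this repeat was not tested. Hspa1a was also lost without any of 9 single mice (RX11LL, RX11RU, RX12LL, RX9RL, s1, s10, s14, s4 and s9), with an adjusted p of at most 0.143.

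Against young kidneys the difference was 0.76 ± 0.29 (SE, edgeR adjusted p = 0.0353) for Hspb1 and -0.34 ± 0.06 (8.65e-05) for Hsf1, 2 of the 10 members beside 41.6% of all genes, 21.1% higher and 20.5% lower. With the repeats and the run as a covariate, again without a term for the mouse, neither passed, at 0.41 (adjusted p = 0.578) for Hspb1 and -0.24 (0.0619) for Hsf1. The Hspb1 call was also lost without s12, s14, s3, s8 or the young mouse ZT00, with an adjusted p of at most 0.0895. The repeat labelled RX11RU, closer to another mouse than to its own original, entered this fit as well, and its part was not tested.

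**Figure D4:**
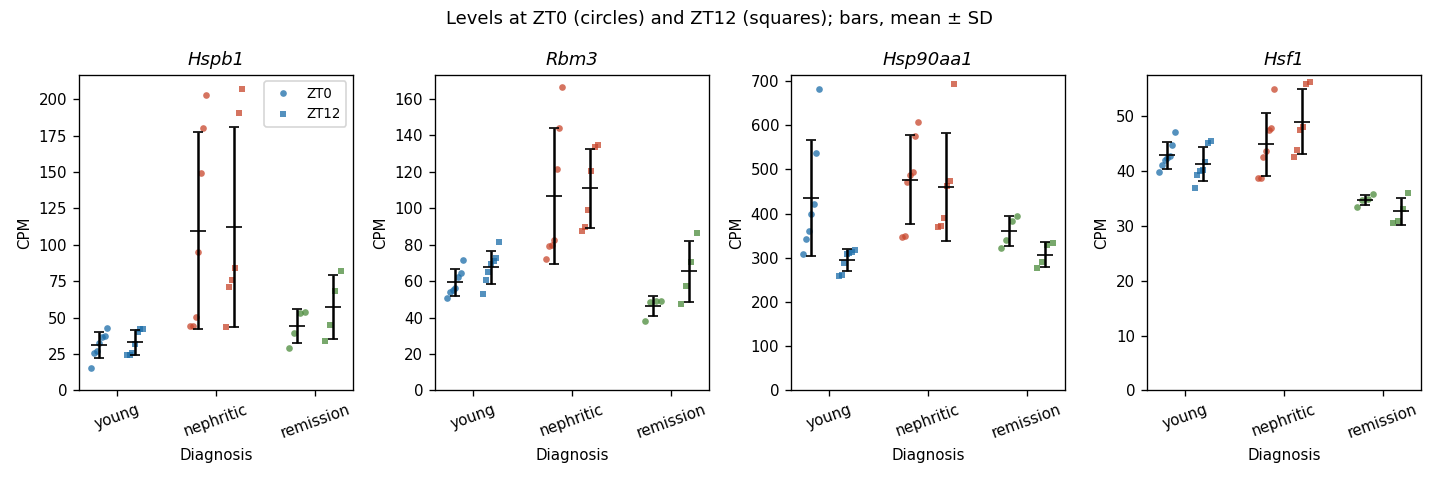
Levels at ZT0 and ZT12 in young, nephritic and remission kidneys, as CPM, for members of the heat shock and cold-inducible group. Each point is a mouse. Hsf1 in the 8 remission mice, from 30.6 to 36.1 CPM, lies below all young and nephritic mice.

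Within each group ZT0 was set against ZT12, the times of lights on and lights off. In young mice Hsp90aa1 was higher at ZT0, from 310 to 682 CPM against 259 to 318 CPM, by 0.56 ± 0.15 on the log2 scale (SE, edgeR adjusted p = 0.0263). It was the only member past the threshold, beside 3.66% of all genes, 1.95% higher and 1.72% lower. The call was lost without the libraries over 100 CPM of adrenal markers (0.61, adjusted p = 0.109) and without any of CR3LL, CR3LU, CR6LL, CR6RL, ZT12LU and ZT12RL, with an adjusted p of at most 0.0972.

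In nephritic mice edgeR called 0 members between ZT0 and ZT12, beside 3.52% of all genes (1.6% higher and 1.91% lower), with 1 at an unadjusted p under 0.05, Dnajb1 at 0.37, and DESeq2 called 0. Dnajb1 passed when mouse RX10LU was left out, with an adjusted p of 0.041. The count over all genes, 592, rested on single libraries, with 55 without HIL5RU and 1068 without HIL5LL. In remission mice edgeR called 0, beside 0.0475% of all genes (0% higher and 0.0475% lower), with 1 at an unadjusted p under 0.05, Rbm3 at -0.48, and DESeq2 called 0. The remission library s9, labelled ZT12, held 27.3 CPM of the clock gene Arntl, against 3.24 to 4.93 CPM in the other remission mice at ZT12 and 22.9 to 28.9 CPM at ZT0. Without it Rbm3 stood at -0.61 (adjusted p = 0.303).

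The wider heat shock response was described by 29 other genes. In young mice 17 of the 29 differed over the day, beside 39.8% of all genes, and 13 differed between dark and light, 10 higher and 3 lower, beside 31.3% of all genes, with a median difference of 0.08 (log2) against 0.01 over all genes. Dnajb4, an HSP40, was higher in the dark by 0.55 ± 0.11 (SE, edgeR adjusted p = 0.000665) and Hspa2, a tissue-restricted HSP70, by 0.45 ± 0.12 (0.00425). Hspb8, a small chaperone, had the largest daily amplitude, 0.36 (log2) with a peak at 13.9 h, and Hsf4 the next after Dnajb4 and Hspa2, 0.28 with a peak at 9.80 h.

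In nephritic mice 10 of these 29 differed over the day, beside 21.6% of all genes, and 0 differed between dark and light, beside 2%. Ahsa2, Chordc1, Dnajb4 and Hspa2 had the largest amplitudes, from 0.15 to 0.21 (log2). Their fitted peaks fell between 18.2 and 21.5 h. The level differed in 15 of the 29 between nephritic and young mice, 4 higher and 11 lower, beside 62.1% of all genes. Hspb8 was higher by 0.67 ± 0.17 (SE, edgeR adjusted p = 0.000812) and Serpinh1 by 0.43 ± 0.08 (2.01e-05). In remission 10 differed from nephritic mice, 2 higher and 8 lower, beside 37.8% of all genes, and 13 from young mice, 7 higher and 6 lower, beside 41.6%.

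The CCT chaperonin, a cytosolic folding machine for actin and tubulin, was followed through its 8 subunit genes. In young mice 4 of the 8, Cct3, Cct5, Cct7 and Cct8, differed over the day, beside 39.8% of all genes, each with its highest mean at ZT4. Between dark and light 0 differed, beside 31.3%. In nephritic mice 2 differed, Cct4 and Tcp1, beside 21.6%, with amplitudes of 0.06 and 0.05 (log2), and 4 of the 8 had a different rhythm there, beside 6.27%.

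CLK kinases and the SR splicing proteins they phosphorylate are known to respond to body temperature, and 16 of their genes were followed. In young mice 10 of the 16 differed over the day, beside 39.8% of all genes, and 8 between dark and light, 6 higher and 2 lower, beside 31.3%. Clk3 was higher in the dark by 0.26 ± 0.04 (SE, edgeR adjusted p = 3.64e-05), with a peak at 16.9 h, and Srsf3 was lower by -0.25 ± 0.05 (0.000785), with a peak at 3.51 h. In nephritic mice 6 differed over the day, beside 21.6%, and 2 between dark and light, beside 2%, with Clk3 at 0.24 ± 0.06 (edgeR adjusted p = 0.0447) and Srsf6 at 0.28 ± 0.07 (0.0379). The level of 7 was higher in nephritic mice compared with young mice, beside 28.1% of all genes. In remission 13 were lower against nephritic mice, beside 20.8%, and 12 against young mice, beside 20.5%, with the run not told apart from remission.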

How the data were processed

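Kidney RNA-seq libraries were analysed from the deposited gene count tables, 1 per library. Per the study's methods, the authors counted uniquely aligned reads with at most 2 mismatches on mm10, with a Burrows-Wheeler aligner, while the submitters' processing notes name HISAT. The strand setting is not given in the sources used here. Of 24538 symbols per table, 15 with empty cells were left out.

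The 65 original libraries were fitted with edgeR 4.0.16 (R 4.3.3), using TMM factors and quasi-likelihood F tests. Genes whose counts summed to at least 100 across the fitted mice were tested, sequencing set entered as a covariate, and p-values were adjusted by Benjamini-Hochberg over all genes tested, with calls at an adjusted p of at most 0.05. All 10 members passed the filter in every fit. Young and nephritic mice were fitted over 6 times, separately for rhythm and jointly for differences, and 35 libraries at ZT0 and ZT12 were fitted in 3 groups. Cosines of 24 h and correlations used log2 CPM (2 prior counts added), and the correlations 100000 permutations within groups, with adjustment over 32 pairs. DESeq2 1.42.0, RLE factors, other filters and covariates and the omission of each mouse were alternatives. The scripts were tested on simulated data.

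The members and the gene lists were chosen with earlier results of these data known. Beyond the members, the genes named were, per list and diagnosis, the 4 with the largest daily amplitude among those past the test over the day, and the 5 most like Hsph1 and Cirbp. The genes named as most opposite were chosen after their values were seen. The mice RX11RU and RX11LU, and libraries over 100 CPM of adrenal markers, were left out as alternatives chosen after seeing the data. Sequencing depth bears on precision: the remission libraries held the fewest counts.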

Additional observations from a re-analysis of the deposited data

Results flagged for a closer look

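In groups of 4 to 7 mice, 8 values stood far from the rest of their group, of 120 groups tested. That is 6.67%, and chance alone flags about 5%. They came from 7 mice. Mouse RX11LL, nephritic at ZT0, held 205 CPM of Hspa1a, with the others from 32.1 to 92.2 CPM, and 264 CPM of Hspa1b, with the others from 64.5 to 138 CPM. Both inducible HSP70 genes were thus highest in the same mouse, and these genes share much of their sequence. Mouse RX11RU, nephritic at ZT12, held 693 CPM of Hsp90aa1, with the others from 369 to 473 CPM, and mouse RX1OLL, nephritic at ZT4, held 383 CPM, with the others from 320 to 327 CPM. Mouse RX11LU, nephritic at ZT4, held 63.2 CPM of Hspb1, with the others from 38.4 to 40.1 CPM. Low values stood apart for Hspa1b in young mouse ZT4RU at ZT4 (46.4 CPM, others 55.1 to 55.6), for Dnajb1 in young mouse ZT16RU at ZT16 (43.3 CPM, others 48.7 to 49.4) and for Rbm3 in remission mouse s4 at ZT0 (38.1 CPM, others 48.7 to 49.2).

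The time courses of Hspa8 (edgeR adjusted p = 0.0225) and Hsp90aa1 (0.0433) differed between nephritic and young mice by a test of the difference itself.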

How the results depend on the processing

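Over 800 values of the members under the alternatives run, 761 kept their direction and their side of the threshold, 34 lost and 5 gained a call, and 0 reversed. Counts of members passed that moved by over 1.5 times were as follows. The cosine-shaped test called 3 over the day in young mice, 0 over the day in nephritic mice and 0 for a different rhythm. Without the set covariate the counts were 5 over the day in nephritic mice, 1 for a different rhythm and 1 for remission against young. For a different rhythm the count was 1 with RLE factors, with no filter, without mice RX11RU and RX11LU and without the adrenal libraries, each time Hspa8. Without the adrenal libraries it was 2 for young dark minus light and 0 for young ZT0 minus ZT12. The repeats with a run covariate gave 3 for remission against nephritic and 0 against young, and correlations in the second set alone gave 1. The causes were not tested.

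Leaving out each mouse gave 4 to 7 members over the day in young mice, 7 to 8 in nephritic mice, 0 to 3 for a different rhythm, 3 to 4 for young dark minus light, 0 to 0 for nephritic dark minus light, 0 to 0 for the difference between them, 3 to 4 for nephritic against young level, 4 to 6 for remission against nephritic, 1 to 2 for remission against young, and for ZT0 minus ZT12 0 to 1 in young, 0 to 1 in nephritic and 0 to 0 in remission mice. Over all genes, the counts that moved by over 1.5 times were 3646 over the day in nephritic mice (1994 without the set covariate, 362 by the cosine-shaped test, 5646 by DESeq2), 1099 for a different rhythm (1715 in the second set alone, 121 by the cosine-shaped test, 2186 by DESeq2) and 338 for nephritic dark minus light (210 without the set covariate, 691 by DESeq2). The difference of that contrast had 5 (2 with RLE factors, 3 with no filter, 1 without the set covariate or the RX11 pair, 0 without the adrenal libraries, 44 by DESeq2). The others were 5163 for young dark minus light and 617 for young ZT0 minus ZT12 (2905 and 231 without the adrenal libraries), 6370 and 7009 for remission against nephritic and young (4031 and 2417 with the repeats), 592 for nephritic ZT0 minus ZT12 (232 without the RX11 pair, 1043 by DESeq2) and 8 for remission (0 in remission mice alone, 2 without the adrenal libraries, 40 by DESeq2). Leaving out 1 mouse moved the counts over all genes to 638 (RX1OLL) or 1771 (RX10RL) for a different rhythm, to 185 (RX8LU) for nephritic dark minus light, to 0 (RX8LL) or 12 (CRS60) for the difference of that contrast, to 55 (HIL5RU) or 1068 (HIL5LL) for nephritic ZT0 minus ZT12 and to 0 (s1) or 83 (s9) for remission ZT0 minus ZT12. No paired analysis was possible because the mice of different groups share no replicate that the labels tie together.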
